A study of Homo sapiens with 18 samples.

Results

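The 4 HOX gene clusters were examined for DNA-RNA hybrids after DNA topoisomerase I poisoning. The genes were defined by annotation, as all protein-coding HOXA, HOXB, HOXC and HOXD genes of GENCODE on GRCh37 (hg19). The set was chosen with earlier results of these data known. It held 39 of the 20163 protein-coding genes. Of these, 11 lie in HOXA, 10 in HOXB, 9 in HOXC and 9 in HOXD. Each cluster was taken as a window from its first to its last gene with 10 kb on each side. In DRIP-seq, genomic DNA is cut with restriction enzymes and the fragments that carry a hybrid are pulled down with the antibody S9.6. All libraries came from HCT116, 1 human colorectal carcinoma cell line, either untreated (NT) or treated with 10 μM camptothecin (CPT), a drug that traps topoisomerase I on DNA, for 5 or 60 min. There were 2 biological replicates of NT, CPT 5 min and CPT 60 min, and each gave a DRIP library, a library whose DNA was digested with RNase H, which degrades the RNA strand of a hybrid, before immunoprecipitation, and an input library that served as the control of the authors' peak calling.

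HOX genes encode homeodomain transcription factors that set positional identity along the body axis, and their order on the chromosome follows the order of the body regions they pattern. Within a cluster the genes lie close together and in one direction, with antisense long noncoding RNAs and microRNAs between them. Polycomb group proteins keep the clusters silent in cells where they are not used, and trithorax group proteins keep active parts transcribed. An R loop forms where nascent RNA pairs with the template strand behind RNA polymerase II, so a hybrid map of a HOX cluster bears on which parts of it were transcribed.

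The HOXA window was chr7:27122612-27249710 and the HOXB window chr17:46595888-46816112, both with HOX genes on the minus strand. The HOXC window was chr12:54322615-54459814 and the HOXD window chr2:176947449-177065635, both with HOX genes on the plus strand. The windows had similar base composition, from 49.3% GC in HOXB to 51.8% in HOXC. The sites of the 5 restriction enzymes of the cocktail (HindIII, EcoRI, XbaI, SspI and BsrGI) were also about equally dense, from 1.22 per kb in HOXC to 1.51 per kb in HOXA. The deposited lists hold peaks and no read counts, so read depth is unknown here and a missing peak is a call below the authors' threshold. The DRIP lists held 30314 to 72879 peaks and the RNase H lists 473 to 67188. In each treatment the replicate 2 list was the longer one, and the RNase H lists of replicate 1 held at most 5392 peaks while that of NT replicate 2 held 15790 and those of CPT replicate 2 held 50353 and 67188. Results over RNase H libraries therefore rest largely on replicate 2.

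The stretches on which the HOX results turn are given here 5′ to 3′ on the plus strand of GRCh37. The first 3 show the restriction site, in capitals, at which a peak began or ended at the same base in all 6 DRIP lists, at chr12:54386734-54386883 between HOXC10 and HOXC9, at chr17:46706403-46706552 upstream of HOXB9, and at chr7:27202993-27203022 in HOXA9, where the 30 bases lie in its untranslated region.
HOXC shared start: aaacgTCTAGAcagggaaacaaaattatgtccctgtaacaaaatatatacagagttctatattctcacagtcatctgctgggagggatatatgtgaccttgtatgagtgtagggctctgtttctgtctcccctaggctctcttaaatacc
HOXB shared end: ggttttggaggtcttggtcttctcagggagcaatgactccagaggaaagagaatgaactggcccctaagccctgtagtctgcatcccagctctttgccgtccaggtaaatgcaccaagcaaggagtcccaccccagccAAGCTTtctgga
HOXA9 shared start: atagaaaatggaAAGCTTacaatacctcct

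The next pair of sequences lay under a peak in all 4 CPT lists and in no NT list. The stretch at chr7:27208861-27209149, between the canonical transcripts of HOXA9 and HOXA10, holds the part of the MIR196B hairpin shown in capitals, which is transcribed from the minus strand. The stretch at chr7:27211521-27211792 is coding sequence of HOXA10, with CpG dinucleotides in capitals.
HOXA CPT-only: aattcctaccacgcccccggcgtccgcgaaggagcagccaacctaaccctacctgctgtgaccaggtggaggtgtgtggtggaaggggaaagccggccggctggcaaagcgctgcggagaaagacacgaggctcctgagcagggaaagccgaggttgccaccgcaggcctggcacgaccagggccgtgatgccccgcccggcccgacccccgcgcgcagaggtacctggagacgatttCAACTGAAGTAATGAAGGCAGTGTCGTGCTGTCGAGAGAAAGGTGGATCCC
HOXA10 coding: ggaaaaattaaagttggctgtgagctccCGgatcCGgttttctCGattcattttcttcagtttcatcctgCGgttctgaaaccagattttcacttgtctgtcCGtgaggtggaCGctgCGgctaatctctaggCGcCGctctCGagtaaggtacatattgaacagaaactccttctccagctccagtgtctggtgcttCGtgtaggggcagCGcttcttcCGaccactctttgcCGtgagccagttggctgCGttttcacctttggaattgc

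The last sequence shows, with CpG dinucleotides in capitals, a stretch under a peak in both NT lists and in no CPT list, at chr17:46710948-46711247 within the long noncoding RNA gene HOXB-AS4.
HOXB NT-only: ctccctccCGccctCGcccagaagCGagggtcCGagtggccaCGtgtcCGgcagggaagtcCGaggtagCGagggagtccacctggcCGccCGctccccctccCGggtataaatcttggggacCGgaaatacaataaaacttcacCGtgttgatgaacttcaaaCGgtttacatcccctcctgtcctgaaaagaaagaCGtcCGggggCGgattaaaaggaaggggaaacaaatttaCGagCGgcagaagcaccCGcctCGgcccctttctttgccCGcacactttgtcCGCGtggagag

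The stretch between HOXA9 and HOXA10 holds 51 of the 85 bases of the MIR196B hairpin. A match of both mature arms to it found the miR-196b-3p arm whole and not the miR-196b-5p arm, so both are shown to tell them apart. RefSeq (on GRCh38.p14) gives the mature sequences, here with the seed (bases 2 to 8) in capitals.
hsa-miR-196b-3p: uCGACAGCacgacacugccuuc
hsa-miR-196b-5p: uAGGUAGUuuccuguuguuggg

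The clusters differed in how much of them lay under DRIP peaks. HOXB carried 141 of the 234 DRIP peaks over the 4 windows, HOXA 59, HOXC 31 and HOXD 3. The 3 HOXD peaks each came from a different replicate 2 list and none overlapped another. HOXD was thus nearly bare of peaks. It had 1.29 restriction sites per kb against 1.30 in HOXB, and the part of site density in the peak counts was not tested.

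**Figure D1:**
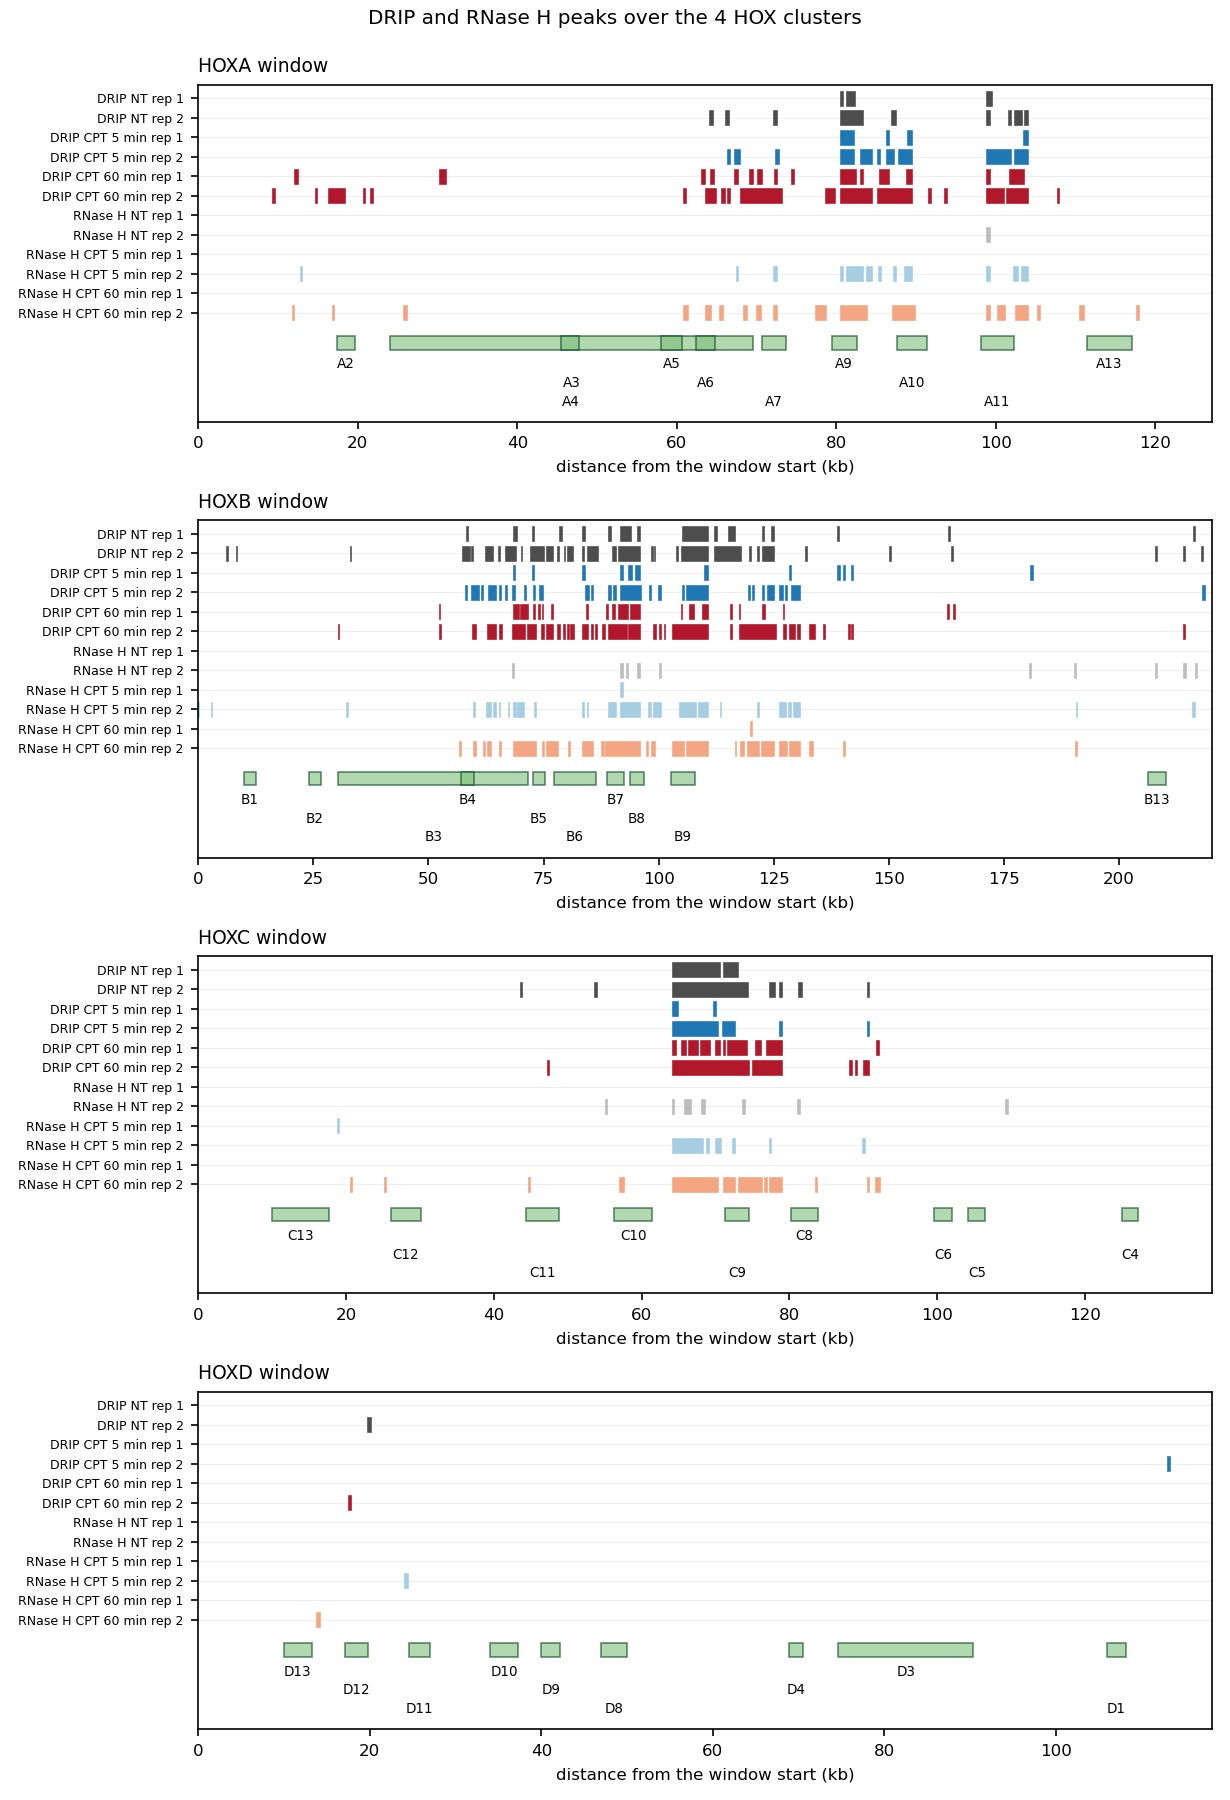
Peaks of the 6 DRIP and 6 RNase H lists over each HOX window, with distance from the window start in kb on the horizontal axis and 1 row per list; green boxes are the canonical transcripts of the HOX genes. Peaks crowd between HOXA6 and HOXA11, between HOXB4 and the HOXB9 upstream region and around HOXC9, and HOXD shows 3 DRIP and 2 RNase H peaks.

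Within a cluster the peaks were concentrated as well. In HOXC, the 18705 bp between HOXC10 and HOXC8, which is 13.6% of the window and holds HOXC9, held 88.4% to 100% of the covered bases in each DRIP list. In HOXA, the 50682 bp between HOXA5 and HOXA13, 39.9% of the window, held 87.2% to 100%. These intervals were chosen after the peaks were seen and are a description.

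In NT cells, the share of window bases under DRIP peaks was 1.71% in replicate 1 and 5.71% in replicate 2 for HOXA. It was 7.50% and 18.9% for HOXB, and 6.24% and 9.34% for HOXC. For HOXD it was 0 and 0.366%. Divided by the share of the genome under peaks in the same list, 1.00% and 1.93%, HOXA was covered 1.70 and 2.96 times as densely as the genome, HOXB 7.49 and 9.81 times and HOXC 6.23 and 4.85 times. HOXD was covered less densely than the genome, at 0 and 0.190 times.

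The question of the CPT comparison was whether hybrids over the HOX clusters moved with topoisomerase I trapping. HOXA was the cluster whose covered share was higher in both CPT 60 min libraries than in both NT libraries. It was 2.68% and 10.2% after 5 min and 9.15% and 21.1% after 60 min, against 1.71% and 5.71% in NT. The mean at 60 min was 15.1% ± 8.42 (SD, n = 2) against 3.71% ± 2.83 in NT, a difference of 11.4 percentage points or 4.07-fold. The two-sided exact permutation test gave p = 0.333, which is the smallest p that 2 libraries against 2 allow, and an adjusted p of 1 (Benjamini-Hochberg) over the 8 comparisons of 4 windows and 2 times. With the replicate number as a block the exact p was 0.5, again the smallest possible. When DRIP peaks that met a peak of the matching RNase H library were removed, the HOXA difference at 60 min was 2.08 points and that at 5 min turned to -2.04 points.

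HOXB and HOXC had lower values at 5 min than NT of the same replicate number. HOXB was covered at 3.25% and 12.2% after 5 min, a change of -4.25 and -6.73 points. HOXC was covered at 0.920% and 6.26%, a change of -5.32 and -3.09 points. At 60 min HOXB was covered at 7.30% and 20.9% and HOXC at 7.86% and 11.8%, close to NT. In both clusters the CPT libraries overlapped the NT libraries at 5 and at 60 min, with exact permutation p between 0.667 and 1. The mean difference of HOXB at 60 min, 0.875 points, changed sign to -1.45 when coverage was divided by that of the genome.

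HOXD stayed near 0 under each treatment, with 0 and 0.249% covered after 5 min and 0 and 0.230% after 60 min. On the scale relative to the genome, HOXA went from 1.70 and 2.96 in NT to 3.33 and 6.72 at 5 min and to 8.21 and 7.94 at 60 min. On this scale HOXA lay above NT in both replicates at both times, with the exact permutation p at its smallest value of 0.333 for each and 0.889 adjusted. HOXC lay below NT at 5 min on this scale, at 1.14 and 4.12 against 6.23 and 4.85, with the same exact permutation p. The NT libraries are shared by the comparisons at both times.

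The share of HOXA among all covered HOX bases differed between NT and CPT with a small spread between replicates. HOXA held 7.96% and 11.7% of them in NT, 28.8% and 26.7% after 5 min, and 30.2% and 30.0% after 60 min. HOXB held 60.6% and 67.0% in NT, 60.5% and 55.1% after 5 min and 41.8% and 51.5% after 60 min. The 4 CPT lists thus lay above both NT lists for the HOXA share and below both for the HOXB share. This is a description with no test. The RNase H lists of replicate 2 had 5.42% of their covered HOX bases in HOXA in NT, 19.6% at 5 min and 21.8% at 60 min, and the part of RNase H-resistant signal in the DRIP shares was not tested.

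**Figure D2:**
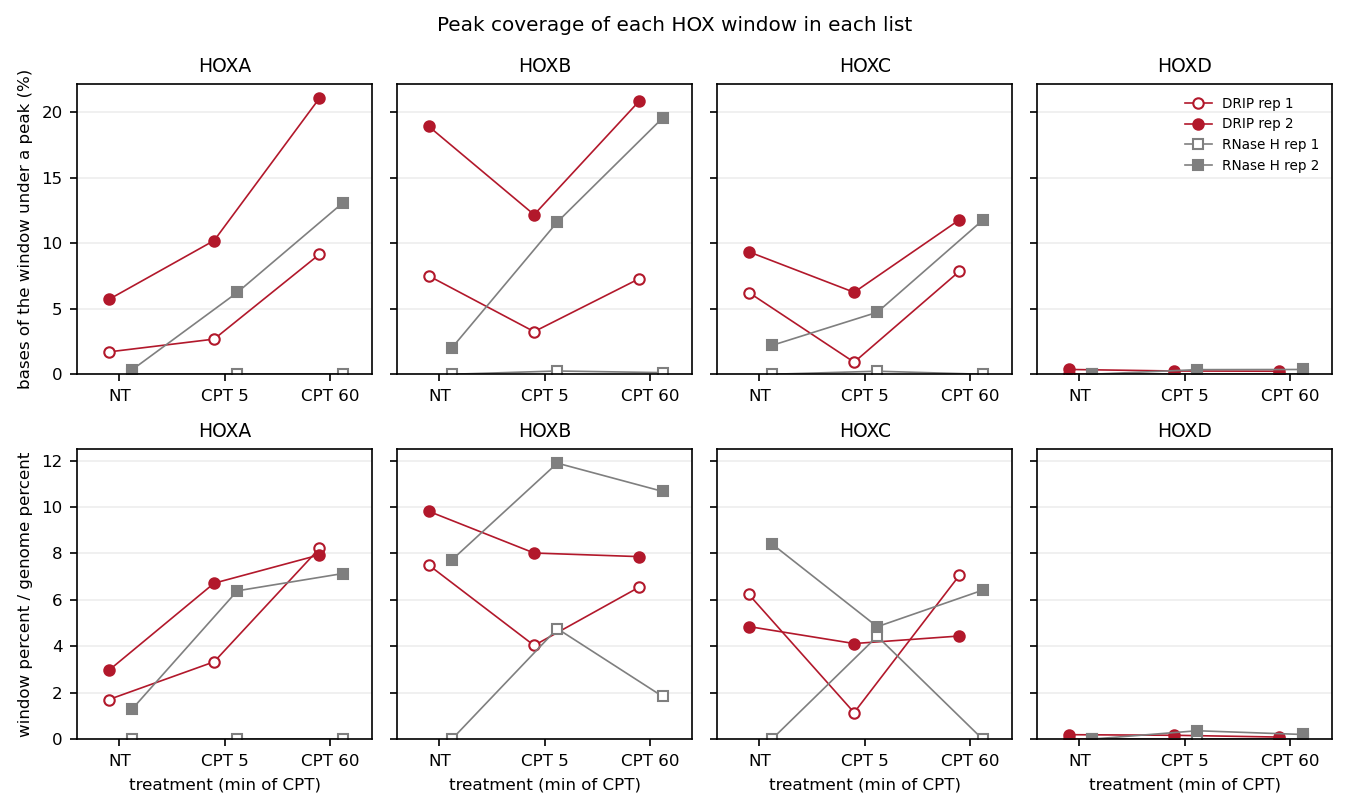
Percent of window bases under a peak (top) and the same divided by the percent of the genome under peaks of that list (bottom), for each cluster in NT and after 5 and 60 min of CPT; circles are DRIP and squares RNase H lists, open for replicate 1 and filled for replicate 2, with no error bars. HOXA lies highest at 60 min in both DRIP replicates, and HOXD stays near 0.

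The comparison of DRIP with RNase H libraries asked how much of the HOX signal was lost when hybrids were degraded first. HOXA was covered at 8.42% ± 7.06 in the 6 DRIP lists against 3.27% ± 5.39 (SD, n = 6) in the 6 RNase H lists, HOXB at 11.7% ± 6.99 against 5.60% ± 8.17, and HOXC at 7.07% ± 3.67 against 3.15% ± 4.60. The exact permutation tests of 6 against 6 gave p = 0.195, 0.197 and 0.121, each with an adjusted p of 0.263. The DRIP and RNase H libraries of a replicate were portions of the same digested DNA and make 6 pairs. The DRIP list was the higher one in 6 of 6 pairs for each of these clusters, and an exact sign-flip test over the pairs gave p = 0.0312, the smallest possible, and 0.0417 adjusted over the 4 windows. The DRIP lists were also the longer ones, and on the scale relative to the genome, added after the data were seen, DRIP was the higher one in 6 of 6 pairs for HOXA, 3 of 6 for HOXB and 2 of 6 for HOXC. The exact sign-flip test on that scale gave an adjusted p of 0.125 for HOXA and 0.75 for HOXB and HOXC, so no cluster passed the threshold on that scale. HOXD was covered at 0.141% against 0.119% (exact permutation p = 0.848), and DRIP was the higher one in 1 of 6 pairs.

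The RNase H result split by replicate. In replicate 1 the RNase H lists covered none of HOXA and HOXD and at most 0.248% of HOXB and 0.231% of HOXC. In replicate 2 after 60 min of CPT they covered 13.1% of HOXA, 19.6% of HOXB and 11.8% of HOXC, which for HOXB and HOXC is close to the 20.9% and 11.8% of the matching DRIP list. In replicate 2 at NT the values were 0.338%, 2.03% and 2.20%. An RNase H peak was found in 23 of the 39 HOX genes, beside 71.2% of all genes. Replicate 1 lists gave 1 of them, HOXB7, beside 17.4%, and replicate 2 lists all 23, beside 70%.

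Gene by gene, 11 of the 39 HOX genes had a DRIP peak in both NT replicates, beside 38.9% of all protein-coding genes. After 5 min the number was 9, beside 41.1%, and after 60 min 15, beside 52.9%. HOX genes were short, with a median of 4216 bp against 27219 bp for all protein-coding genes, and the part of gene length in these counts was not tested. In windows of 1 kb on each side of the annotated start, which have the same length for each gene, the counts were 4, 1 and 8 of 39, beside 15.3%, 14.7% and 25.4%. By either count the HOX shares were below those of all genes, a description with no test. No start window of 20 HOX genes held a peak in any list, beside 47.7% of all genes.

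The 8 HOX genes with a peak in all 6 DRIP lists, beside 26.1% of all genes, were HOXA9, HOXB3, HOXB5, HOXB6, HOXB7, HOXB8, HOXC6 and HOXC9. HOXB thus gave 5 of its 10 genes and HOXD none. The 17 genes with no DRIP peak in any list, beside 22.2% of all genes, were HOXA4, HOXA5, HOXA13, HOXB1, HOXB2, HOXC5, HOXC10, HOXC12, HOXC13 and 8 of the 9 HOXD genes. The other 14 genes had a peak in 1 to 5 lists. Among them HOXA2 and HOXC11 had one in a single 60 min list, over 1038 and 294 bp, and HOXB13 and HOXC8 in NT replicate 2 alone, over 333 and 480 bp. HOXD12 was the exception in HOXD, with 123 bp covered in NT replicate 2 and 272 bp in CPT 60 min replicate 2. By paralogue group, a peak in all 6 lists was found in 1 of the 8 anterior genes (groups 1 to 3), 5 of the 15 central genes (4 to 8) and 2 of the 16 posterior genes (9 to 13).

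Of the HOX genes, HOXC6 and HOXC9 had the highest peaks, at a mean within-list percentile of fold enrichment of 94.0 over the 6 DRIP lists. Both have the same value in each list because the 40200 bp gene model of HOXC6 spans HOXC9. HOXC6 was covered at 21.3% and 30.2% in NT, 3.14% and 21.3% after 5 min, and 26.8% and 39.5% after 60 min. The canonical HOXC6 transcript had no DRIP peak in any list, so these values belong to the interval around HOXC9, a posterior-group gene of the trunk and limbs. HOXC9 was covered over 78.4% and 98.7% of its length in NT, 5.18% and 71.0% after 5 min, and 73.2% and 100% after 60 min. Both 5 min libraries lay below both NT libraries, a pattern that 13.5% of all genes showed, and the 60 min libraries overlapped NT. The RNase H lists of replicate 2 covered 17.2%, 45.5% and 87.3% of HOXC9 in the same order, and those of replicate 1 covered none.

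HOXB7 came next, at a mean percentile of 89.2, with 35.8% and 58.7% of the gene covered in NT, 12.6% and 45.1% after 5 min and 30.1% and 58.6% after 60 min. The 3 treatments overlapped. The RNase H lists of replicate 2 covered 6.92% of HOXB7 in NT, 53.5% after 5 min and 59.9% after 60 min. Both CPT values were above those of the matching DRIP lists. In replicate 1 the RNase H lists covered 2.08% after 5 min and none otherwise. The HOXB7 model is also long, 26341 bp, and reaches over HOXB8 and HOXB9.

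HOXB8, HOXB5, HOXB6 and HOXB3, genes of the anterior and central groups, had peaks in each DRIP list. HOXB8 was covered at 39.4% and 76.5% in NT, 49.7% and 83.3% after 5 min, and 68.0% and 69.6% after 60 min, and was the single HOX gene with a peak in its start window in all 6 lists, beside 7.47% of genes. HOXB5 was covered at 7.73% and 92.9% in NT, 7.73% and 58.6% after 5 min, and 46.4% and 51.0% after 60 min. HOXB6 ranged from 4.98% to 50.8% and HOXB3 from 2.53% to 29.4%. In each of these genes the treatments overlapped. The RNase H lists of replicate 2 covered 22.6% of HOXB8 in NT, 81.4% after 5 min and 76.5% after 60 min. After 60 min they covered 49.7% of HOXB5, 39.5% of HOXB6 and 24.4% of HOXB3. The RNase H lists of replicate 1 covered none of these genes.

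HOXA9, a posterior-group gene well known in leukaemia, was the HOXA gene with a peak in all 6 lists. It was covered at 11.5% and 28.9% in NT, 22.0% and 49.8% after 5 min and 34.9% and 71.6% after 60 min. Coverage after 60 min was above NT in both libraries, and the 5 min libraries overlapped NT. The mean percentile of its highest peak was 77.9. The HOXA9 model spans 12743 bp and reaches over MIR196B and into the HOXA10 model. In CPT 5 min replicate 2 and CPT 60 min replicate 1 its highest peak, at percentiles 97.6 and 92.8, is also that of HOXA10. The RNase H lists of replicate 2 covered 38.6% of HOXA9 at 5 min and 49.4% at 60 min, and the other 4 RNase H lists none.

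**Figure D3:**
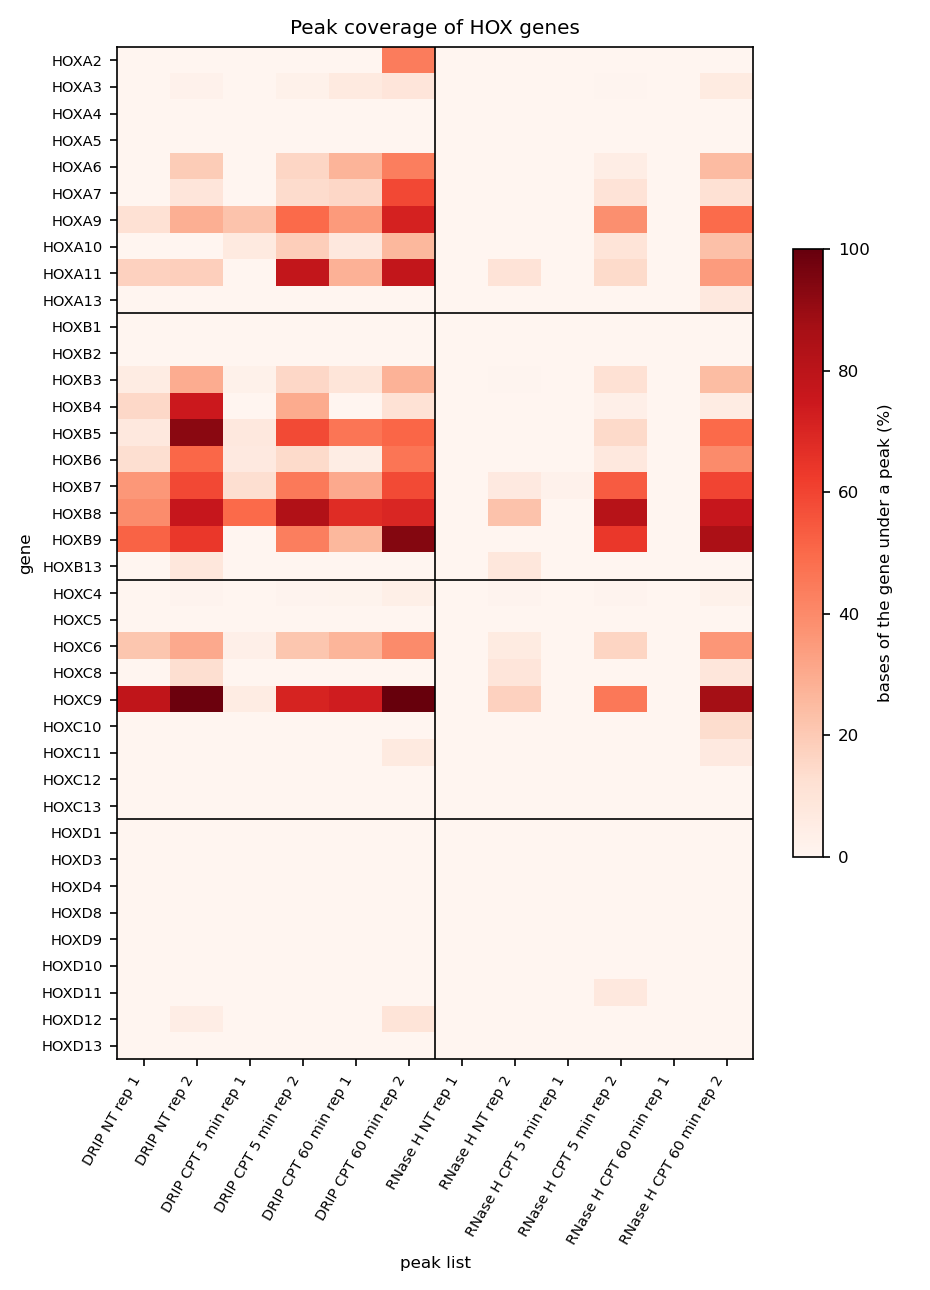
Percent of each HOX gene reported here, from first to last annotated base, under a peak (colour, 0 to 100%) in the 6 DRIP lists (left of the vertical line) and the 6 RNase H lists (right), with genes ordered by cluster and number. Coverage is concentrated in HOXA6 to HOXA11, HOXB3 to HOXB9, HOXC6 and HOXC9, and the RNase H lists of replicate 1 are almost empty.

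HOXA10 was the only HOX gene gained, with a peak in both CPT replicates and in neither NT replicate, at 5 min (beside 4.59% of all genes) and at 60 min (beside 7.56%). HOXA10 is a posterior-group gene of uterine and haematopoietic development. It was covered over 0 and 0 bp in NT, 614 and 1801 bp after 5 min and 748 and 2508 bp after 60 min, out of 9657 bp. The RNase H lists covered 979 bp in CPT 5 min replicate 2 and 2236 bp in CPT 60 min replicate 2, and none elsewhere. With the RNase H-overlapping DRIP peaks removed, or with 1 kb added on each side of the gene, HOXA10 was no longer gained at 5 min. No HOX gene was lost by the same rule, beside 2.4% of all genes at 5 min and 1.52% at 60 min.

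The HOXA10 peaks shared a 614 bp segment in all 4 CPT lists, chr7:27211480-27212093, which holds the coding stretch printed above, ends at a BsrGI site and was met by 2 RNase H lists. A second segment of this kind, chr7:27208861-27209149, began at an EcoRI site and was met by no RNase H list. It had 64.4% GC. The MIR196B hairpin of 85 bp was covered over 85 and 85 bp after 5 min and 51 and 85 bp after 60 min, and over 0 bp in NT. The third, chr7:27226047-27226149, lay in HOXA11-AS, an antisense long noncoding RNA. These 3 were the only segments of at least 100 bp in the 4 windows under a peak in all CPT lists and in no NT list, and all lay in HOXA. No genome-wide count of such segments is given here, so whether this number is unusual is not known.

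Covered bases were higher in both CPT 60 min libraries than in both NT libraries for 7 HOX genes, beside 23.2% of all genes. They were HOXA3, HOXA6, HOXA7, HOXA9, HOXA10, HOXA11 and HOXC4, so 6 of them lay in HOXA. Over all 39 genes the share was 17.9%, below that of all genes. The gene models of HOXA9 and HOXA10 overlap, so peaks in the overlap count for both. HOXA11, a limb and uterus gene, was covered over 704 and 748 bp in NT, 0 and 3155 bp after 5 min and 1145 and 3162 bp after 60 min. HOXA6 was covered over 0 and 1008 bp in NT, 0 and 826 bp after 5 min, and 1418 and 2274 bp after 60 min. HOXA7 was covered over 0 and 382 bp, 0 and 580 bp, and 648 and 2475 bp in the same order. In each of these genes the replicate 1 value at 60 min was above the replicate 2 value in NT, while the 5 min libraries overlapped NT. The RNase H list of CPT 60 min replicate 2 covered 1404 bp of HOXA11, 1299 bp of HOXA6 and 493 bp of HOXA7.

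HOXA3 and HOXC4 have long gene models. HOXA3 spans 46400 bp over HOXA4, HOXA5 and HOXA6, and HOXC4 spans 39100 bp. The canonical HOXC4 transcript had no DRIP peak, while that of HOXA3 had a peak in both CPT 60 min lists. At their start windows, 2 HOX genes were gained at 60 min, HOXA3 and HOXA6, beside 6.33% of all genes, and the start window of HOXB7 was lost at 5 min, beside 1.6%.

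**Figure D4:**
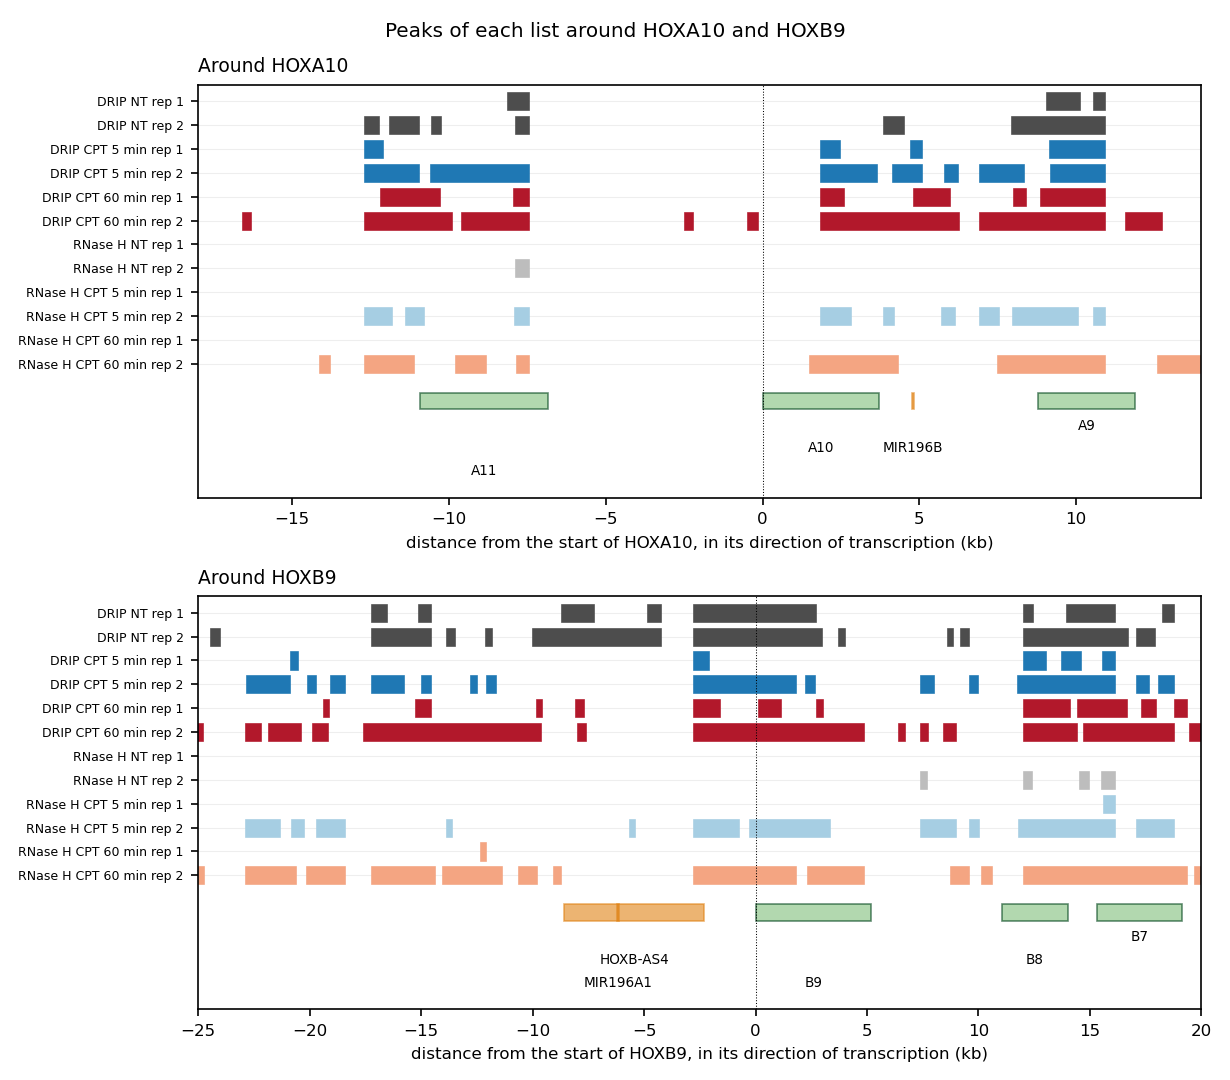
Peaks of each list around HOXA10 (top) and HOXB9 (bottom), with distance in kb from the gene's canonical start in its direction of transcription; green boxes are HOX genes and orange boxes other transcripts. The CPT lists carry peaks over HOXA10 and MIR196B where the NT lists carry none, and the NT lists carry peaks upstream of HOXB9 in HOXB-AS4 that the CPT lists mostly lack.

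Lower coverage after CPT was seen in HOXB and HOXC. HOXB4 was covered over 433 and 2128 bp in NT, 0 and 850 bp after 5 min and 0 and 321 bp after 60 min, and was the 1 HOX gene lower in both 60 min libraries, beside 6.28% of all genes. HOXB9 was covered over 2700 and 3333 bp in NT, 0 and 2276 bp after 5 min, and 1348 and 4886 bp after 60 min. HOXB9 and HOXC9 were the 2 HOX genes lower in both 5 min libraries, 5.13% of HOX genes beside 13.5% of all genes. HOXA10 was the 1 HOX gene higher in both, beside 12.9% of all genes.

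Segments under a peak in both NT lists and no CPT list numbered 4, all in HOXB and none met by an RNase H list. One lay in HOXB4 within HOXB3, chr17:46654270-46654506. The other 3 lay upstream of HOXB9, at chr17:46707943-46708593, chr17:46710948-46711333 and chr17:46711827-46712451. The first of these lay within HOXB-AS4, as did the second, and the last reached past its end. The longest was 651 bp, and the 386 bp segment, of which the first 300 bases are printed above, had 62.4% GC. HOXB-AS4 itself was covered over 2507 and 4861 bp in NT, 509 and 509 bp after 5 min and 931 and 926 bp after 60 min, with all CPT values below both NT values. A peak ending at the shared HindIII site lay over its 5′ end in all 6 lists. A genome-wide count of segments under both NT lists and no CPT list is not given here either.

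Segments under a peak in all 6 DRIP lists numbered 2 in HOXA, with 1330 bp, 6 in HOXB, with 2634 bp, and 2 in HOXC, with 783 bp, and none in HOXD. Both HOXA segments lay in HOXA9. The longest of HOXB, chr17:46705790-46706545 with 756 bp, lay upstream of HOXB9, and that of HOXC, chr12:54386740-54387325 with 586 bp, between HOXC10 and HOXC9. Its GC content was 47.1%. For segments in all 6 lists, too, no genome-wide count is given.

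Edges of HOX peaks often lay at restriction sites. An edge within a site of the 5 enzymes or on the base next to it was found in 61.5% of the 234 DRIP peaks, and 32.5% of all edges did, while such positions are 0.978% to 1.21% of the bases of the windows. In the RNase H lists, 62.3% of 122 HOX peaks had such an edge. A start or end was shared to the base by at least 3 DRIP lists at 14 positions, and all 14 were restriction sites. The 3 positions shared by all 6 lists are the XbaI and HindIII sites printed above. The median restriction fragment of the windows was 425 to 482 bp long, and the median HOX DRIP peak 571.5 bp.

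Merged over replicates and treatments, the windows held 18 regions of the 28514 in the genome, with a median width of 3407.5 bp against 1394 bp. In 6 of them, 33.3% against 13.04% genome-wide, both replicates of all 3 treatments had a peak. These regions lay over HOXA9, HOXC9, HOXB5, HOXB6, HOXB7 with HOXB8, and HOXB9. The widest region, of 13395 bp, lay upstream of HOXB9 over HOXB-AS4, MIR196A1 and LINC03057, and the HOXC9 region was 10469 bp wide. One region was a late gain, with peaks in both 60 min lists alone, chr17:46648174-46648612 in a HOXB3 intron, and was met by no RNase H list (5.56% of the HOX regions against 14.6% genome-wide). The other 11 were mixed between replicates, and no HOX region was a stable gain, a transient gain or a loss. With a minimum of 50% of a region covered, none of the 18 was present throughout and 3 were late gains. With a minimum −log10 q of 3 there was 1 stable gain and no late gain, and 5 regions were present throughout. Genome-wide shares under these minimums are not given here, so whether these counts are unusual is not known. The part of the greater width of HOX regions in the shares above was not tested.

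HOX peaks had more GC than peaks in general. Their median GC content was 56.1% against 51.2% in NT replicate 1 and 53.2% against 51.9% in NT replicate 2. It was 53.1% against 44.7% and 55.0% against 47.9% after 5 min, and 53.9% against 49.1% and 53.0% against 47.5% after 60 min. The HOX value was the higher one in all 6 lists, and the windows themselves lie near 50% GC.

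Most HOX peaks did not have their summit in coding sequence. In HOXA, 4 of 59 DRIP summits lay in the coding sequence and 6 in the untranslated regions of canonical transcripts, in HOXB 15 and 14 of 141, and in HOXC 1 and 1 of 31. The largest group lay in introns or alternative transcripts of HOX genes, with 57.6% in HOXA, 45.4% in HOXB and 87.1% in HOXC. In HOXB, 27.7% lay in other genes, mainly noncoding RNAs.

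The clusters also hold noncoding genes. HOXC-AS2, antisense next to HOXC9, was covered over its whole 2976 bp in 4 of the 6 DRIP lists, over 1894 bp in CPT 60 min replicate 1 and over none in CPT 5 min replicate 1. HOTTIP, which lies beyond HOXA13, had no DRIP peak, and HOTAIR, between HOXC12 and HOXC11, had one in 1 list. MIR196A1 in HOXB was covered in 1 list, NT replicate 2, and MIR196A2 in HOXC, MIR615 in HOXC and MIR10B in HOXD in none. All 8 other annotated genes of the HOXD window, among them HAGLR, HAGLROS and the homeobox gene EVX2, had no DRIP or RNase H peak.

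Genes that act with or on the HOX clusters were taken from a list of 68 symbols, of which 67 were found in the annotation. A peak in both replicates was found in 33 of the 67 in NT, 36 after 5 min and 50 after 60 min, beside 38.9%, 41.1% and 52.9% of all genes, which have a median length of 27219 bp against 35874 bp on the list. Of the 27 Polycomb genes, 16 had one in NT and 22 after 60 min. The E3 ligase gene RNF2 was gained at both times, with 0 and 0 bp covered in NT, 613 and 416 bp after 5 min and 523 and 2689 bp after 60 min. Of the 20 matched trithorax and boundary factor genes, 11 had a peak in both replicates in NT, 15 after 5 min and 18 after 60 min, and the cohesin gene RAD21 and the demethylase gene KDM6A were among the 5 gained at 60 min. Of the 9 TALE cofactor genes, 4, 4 and 6 had one. Over the list, 9 of 67 genes were gained at 60 min and none was lost, beside 7.56% and 1.52% of all genes.

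The ParaHox genes are the evolutionary sisters of the HOX genes. Of the 11 ParaHox and neighbouring homeobox genes of the list, 6 had no DRIP peak in any list, namely GSX1, GSX2, CDX1, CDX4, EVX1 and EVX2, and none had a peak in all 6, beside 22.2% and 26.1% of all genes. The median length of the 11 genes was 7794 bp, against 27219 bp for all genes. PDX1 was gained at 60 min, with 350 and 1336 bp covered. CDX2, an intestinal transcription factor that acts upstream of HOX genes, was covered over 366 and 366 bp in NT, 0 and 0 bp after 5 min and 0 and 3996 bp after 60 min, and so was the 1 gene of the list lost at 5 min.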

How the data were processed

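HCT116 cells gave 18 libraries, 6 DRIP, 6 RNase H-digested DRIP and 6 input, in 3 treatments with 2 biological replicates. The authors removed adapters with Cutadapt, aligned reads with BWA (hg19, and sacCer3 for the yeast spike-in), took out blacklisted and duplicate reads with SAMtools and Picard, and ran MACS2 on single libraries with the matching input as control. Their versions are not given in the sources used here. The deposited fold is the enrichment of a peak's summit over input, the deposited −log10 p and q values state its significance, and the deposited score entered no result. The lists carry no spike-in scaling or read counts, so depth is unknown and list length is the nearest measure.

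Peaks were intersected with the HOX windows and with gene spans of GENCODE release 44 on GRCh37. The measures were the percent of a window or gene under merged peaks, presence in both replicates, absence in both, and the fold as a percentile within its list. Window coverage was compared with two-sided exact permutation tests and Benjamini-Hochberg adjustment over the windows and times, at a threshold of 0.05. Named in full were the 3 genes with the highest mean percentile, genes gained or lost, and genes with a peak in all or no DRIP lists; other genes were chosen after their values were seen. The values of 1 HOX gene and 1 sequence are not reported here. The members and lists were chosen with earlier results of these data known. The RNase H and DRIP libraries of one replicate are portions of the same digested DNA, which gives the pairs. Between treatments, replicate 2 covered more than replicate 1 of HOXA, HOXB and HOXC in all 3 treatments, and the labels do not say what the number shares.

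Alternatives were a minimum −log10 q of 3, the strongest peaks up to the length of the shortest list, merging of peaks up to 1000 bp apart, removal of DRIP peaks that met an RNase H peak, no flank or 50 kb, a minimum overlap of 200 bp, other gene spans, leaving out each replicate, and the replicate block. Coverage relative to the genome, equal length of all 12 lists and the canonical transcript span were added after the data were seen. The steps were tested on simulated peaks and recovered 200 of 200 covered lengths and 800 of 800 presence patterns. Python 3.11.15, NumPy 2.4.6, pandas 2.3.3, pysam 0.24.0 and Matplotlib 3.10.9 were used.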

Additional observations from a re-analysis of the deposited data

Results flagged for a closer look

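After 5 min of CPT, the covered share of HOXA was above NT of the same replicate number in both replicates, while those of HOXB and HOXC were below it in both. The mean differences from NT were 2.74 percentage points in HOXA, -5.49 in HOXB and -4.20 in HOXC. The difference between clusters was not tested. In each cluster the 5 min libraries overlapped the NT libraries, in HOXC narrowly, at 6.26% (5 min, replicate 2) against 6.24% (NT, replicate 1). The HOXC change was larger than the SD of either group, 3.77 at 5 min and 2.20 in NT. HOXA turned to -2.04 points when DRIP peaks that met an RNase H peak were removed.

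At the same time, the RNase H libraries moved against the DRIP libraries in HOXB and HOXC. HOXB changed by -5.49 points in DRIP and by 4.92 points in RNase H, with these signs in both replicates. HOXC changed by -4.20 points in DRIP and by 1.38 points in RNase H, also with these signs in both. This difference was not tested either. Relative to the genome, the RNase H change in HOXC was 4.43 in replicate 1 and -3.56 in replicate 2, where DRIP changed by -0.732, so there both moved the same way in replicate 2. The RNase H change was 9.59 points in replicate 2 and 0.248 points in replicate 1 for HOXB, and the replicate 2 RNase H list grew from 15790 peaks in NT to 50353 at 5 min.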

How the results depend on the processing

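Of the alternatives to the window comparisons, 71 of 80 for CPT against NT kept direction and side of the threshold. For DRIP against RNase H 41 of 60 did, and 67 of 94 gene counts stayed within 1.5 times. These totals include the alternatives added after the data were seen. No 2 against 2 comparison can pass the threshold. The HOXA difference at 60 min ranged from 2.08 to 15.4 points. Read depth is unknown here and its part was not tested, and a missing peak in a short list is a call not made. The cause of the changes was not tested.

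With DRIP peaks that met an RNase H peak removed, HOXA at 5 min was -2.04 and HOXB at 60 min -6.69 points. With the strongest peaks alone, HOXD at 5 min was 0.124, HOXD at 60 min 0 and HOXB at 60 min -1.37, and relative to the genome HOXB at 60 min was -1.45. Leaving out a replicate gave -0.203 to 1.95 for HOXB at 60 min, -0.117 to 0 for HOXD at 5 min and -0.135 to 0 for HOXD at 60 min. For CPT against NT the replicate block gave exact p of 0.5 or 1 and changed no call.

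With the strongest peaks alone, as many as the shortest list of each assay, DRIP exceeded RNase H by 6.67 in HOXA, 9.86 in HOXB and 6.62 points in HOXC, but DRIP lists then held 30314 peaks and RNase H lists 473, so this comparison says nothing about RNase H. With 473 peaks in all 12 lists, with or without the replicate block, almost no HOX peak was left and the differences were 0 in HOXA, HOXC and HOXD and 0.00560 in HOXB. The replicate block passed the threshold, with differences of 5.15, 6.07 and 3.91 in HOXA, HOXB and HOXC, and no longer did so relative to the genome. HOXD was -0.0196 relative to the genome, with or without the replicate block. HOXD was -0.0239 with no flank, -0.0130 with 50 kb, -0.0512 at 5 min alone, -0.0668 at 60 min alone, and 0 to 0.0432 without a replicate.

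With start windows, the genes with a peak in both replicates numbered 4 (NT), 1 (5 min) and 8 (60 min), those in all 6 lists 1, gains 0 and 2 and losses 1 at 5 min. With RNase H-overlapping peaks removed they numbered 4 at 5 min, 9 at 60 min and 3 in all 6 lists, with 0 gains and 2 losses at 5 min and 1 loss at 60 min. With 1 kb added to genes, gains at 5 min were 0. With absence taken as no peak in at least 1 replicate, losses were 3 at 5 min and 1 at 60 min and gains at 60 min 5, and the strongest peaks gave 1 loss at 60 min. Leaving out a replicate gave 11 to 18 genes in NT, 9 to 16 at 5 min, 8 to 15 in all lists, 3 losses at 5 min, 3 to 6 gains and 1 to 2 losses at 60 min. With canonical transcript spans, HOXC6 had no peak. Regions present throughout were 0 when 50% had to be covered.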
